A study of Mus musculus with 4 samples.

Results

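The 91 protein-coding genes of translation factors are described here in mouse pancreatic islets kept at low or high glucose. They were chosen by name from a table of 56748 genes, of which 21970 are protein-coding. Names had to begin with Eif1 to Eif6, Eef, Gspt or Pabpc, or be Etf1. The rule left out 7 genes of the eIF2alpha kinases and the 4E-binding proteins, which regulate translation without being factors, and 17 rows of the same name pattern that are not protein-coding. No measured value entered the choice. RNA was sequenced after poly(A) selection from islets of male C57BL/6J mice aged 6 to 8 weeks, with 2 libraries at 2.5 mM glucose (low glucose) and 2 at 25 mM (high glucose). By the study's text both groups had first been kept without glucose, and each then received its glucose level for 2 h. Cycloheximide, which blocks translation elongation, was present at 100 µg/ml in the last 15 min in both groups, so neither group is untreated. By the same text a replicate pools islets of several mice. Whether a given difference in bulk RNA comes from the share of a cell type or from RNA per cell cannot be told apart.

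Protein synthesis runs through these genes in order. The factors eIF1, eIF1A, eIF2, eIF3 and eIF5 load the small ribosomal subunit with the initiator tRNA, and the eIF4 factors bring it to the capped end of the mRNA, which poly(A)-binding proteins link to the tail. The eEF1 and eEF2 factors then elongate the chain, eRF1 and eRF3 release it, and eIF2B recharges eIF2 with GTP. In beta cells, the insulin-producing cells of the islet, insulin synthesis rises within minutes of glucose, and much of that control is known to act on the factors' proteins through phosphorylation of eIF2alpha, eEF2 and the 4E-binding proteins. Whether the mRNA of the factors themselves also differed after 2 h is the question put to these libraries.

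The libraries held 17279505 to 19136068 counts. The second library at high glucose stood apart, with a correlation of log2 levels across genes of 0.94 to 0.96 with each other library, where the others reached 0.97 to 0.98 among themselves. The summed level of 10 islet endocrine markers was 116600 and 152700 CPM (reads scaled to a common library size) at low glucose and 119000 and 254100 at high glucose, so it was highest in that same library. The 10 acinar markers summed to 321, 357, 770.3 and 300.5 CPM in the same order, the 5 ductal markers to 877, 592, 787 and 830.0, the 5 endothelial markers to 40.04, 158, 44.0 and 151, the 5 stellate markers to 517, 91.1, 486 and 118, and the 5 immune markers to 18.7, 23.9, 18.7 and 28.1. Cd3e, the T-cell marker, was at 0 throughout. The part of these cell types in the results below was not tested. Throughout, 4 values in a row are low glucose replicates 1 and 2, then high glucose replicates 1 and 2.

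Several factor mRNAs belong to the TOP class, whose 5′ end carries a run of pyrimidines through which mTOR signalling controls their translation. The stretch around the annotated start is therefore shown for the 5 of 10 genes of the TOP list (Eef1a1, Eef1b2, Eef1d, Eef1g, Eef2, Eif3e, Eif3f, Eif3h, Eif4b and Pabpc1) that were present in the RefSeq promoter table of GRCm38.p6, and for Eif2s3x, which is not in that list. Each holds 10 bases before and 20 bases from the start on, 5′ to 3′ along the gene, with the longest run of C or T in capitals.
Eif3f: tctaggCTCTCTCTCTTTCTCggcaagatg
Eef1a1: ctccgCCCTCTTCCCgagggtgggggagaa
Eef2: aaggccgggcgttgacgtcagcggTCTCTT
Eif4b: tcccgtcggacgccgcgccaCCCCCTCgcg
Eef1b2: ctgcagTTCCgccggaagtagccgaggcct
Eif2s3x: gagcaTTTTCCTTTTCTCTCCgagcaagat
The runs were 15 bases in Eif3f, 10 in Eef1a1, 7 in Eif4b, 6 in Eef2 (ending with the window) and 4 in Eef1b2, and 16 in Eif2s3x. The windows lie on the plus strand at chr7:108934405-108934434 (Eif3f), chr10:81176621-81176650 (Eef2), chr15:102073763-102073792 (Eif4b) and chr1:63176821-63176850 (Eef1b2). Those of Eef1a1 at chr9:78481705-78481734 and of Eif2s3x at chrX:94212632-94212661 lie on the minus strand. A run of at least 8 bases was found in 10 of the 52 tested factor genes of that table (19.2%), against 13.0% of all 27025 genes in it and 13.9% of the 11335 of them that were tested.

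Of the 91 genes, 71 had at least 1 read. The 20 at 0 in every library were 16 genes named Eif1ad followed by a number, Eif4a3l1, Eif4e1b, Pabpc2 and Pabpc6, and a count of 0 allows up to 0.152 to 0.169 CPM in a library (3 counts). Eif4a3l2, with 0, 0, 1 and 1 reads, and Pabpc4l, with 4, 7, 3 and 1, were too low to test. The remaining 69 were tested among 15665 genes.

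Together the 91 genes took 1.86% and 1.69% of all counts at low glucose and 1.80% and 1.63% at high glucose. The groups overlapped, and the exact permutation test over the 4 libraries, two-sided, gave p = 0.667, where 0.333 is the smallest that 2 against 2 allows. The 95% Wilson intervals, which cover counting error only, were 1.852 to 1.865% for the first library and 1.628 to 1.640% for the last. Replicate 1 was above replicate 2 in both groups. Eef1a1 alone, which carries aminoacyl-tRNAs to the ribosome, took 0.426%, 0.383%, 0.420% and 0.385%.

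Levels between genes are compared per exonic length, as TPM (reads per base of exon, scaled to a fixed sum in each library). Eef1a1 was the most abundant factor mRNA, at 5195, 4529, 4931 and 3613 TPM, and Eef2, which moves the ribosome along the mRNA, was next at 2686, 2239, 2326 and 1541. Their ranges did not overlap. Eif1, which guards the choice of start codon, followed at 740 to 856 TPM. Eef1g, a subunit of the eEF1A exchange complex (456 to 539), and Eif5a, which relieves stalled peptide bond formation (456 to 557), could not be ordered beyond their spread. From there down neighbouring genes overlapped: Eif3c spanned 245 to 451 TPM, Eif4a2 224 to 418 and Pabpc1 171 to 361. TPM of 1 gene is not compared between libraries, since the endocrine transcripts took a larger part of the second high-glucose library.

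**Figure D1:**
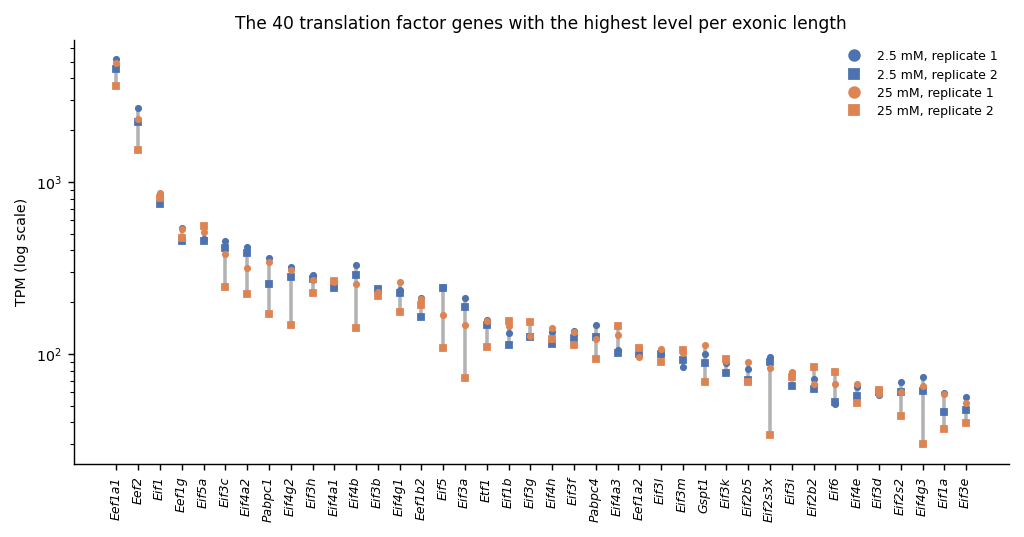
TPM on a log axis for the 40 factor genes with the highest mean level, 1 point per library (blue 2.5 mM, orange 25 mM, circle replicate 1, square replicate 2) and a grey line over their range. Eef1a1 and Eef2 stand above the rest, and from Eif1 down the order of neighbours often falls within the spread of the 4 libraries.

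No factor gene passed the test between low and high glucose. In edgeR's quasi-likelihood test without a replicate block, 0 of the 69 had an adjusted p under 0.05, where 0% of all 15665 tested genes did, and the lowest adjusted p among the factor genes was 0.439. DESeq2 and limma-voom also called 0 of them. At an unadjusted p under 0.05, 5 were higher (Eef1akmt1, Eif2b4, Eif4a3, Eif4e2 and Eif6; 7.25%, against 3.82% of all tested genes) and 2 were lower (Eif3a and Eif5; 2.90%, against 6.67%). With the study's added demand of an absolute log2 fold change over 0.58, 4 were higher and 2 lower, where 3.63% and 6.33% of all tested genes were. The replicate number as a block left 1 higher, Eef1akmt1, and 1 lower, Pabpc5, at an adjusted p under 0.05, where 1.85% and 5.01% of all genes were called. That fit took the spread of every gene from the trend over all genes, so its p-values do not reflect a gene's own spread between libraries.

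Most factor mRNAs lay close to no difference. A log2 fold change is given as 25 mM over 2.5 mM. Its median over the 69 genes was 0.16, beside -0.01 over all tested genes, and 59 of them (85.5%) lay within 0.58 of 0, as did 75.7% of all genes. The 95% interval lay inside 1 log2 unit on either side of 0 for 49 genes, and the median distance from the estimate to either end of it was 0.55. The interval is not adjusted for the number of genes. The adjusted test passed no gene of any size, so 7 factor genes higher and 3 lower by over 0.58 were not called either.

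The 2 libraries of a group did not give the same picture. Between the libraries numbered 1 the median log2 ratio of the factor genes was 0.00 (all genes -0.03), and the median size of the ratio was 0.15. Between those numbered 2 it was 0.26 (all genes 0.01), with a median size of 0.42. The ratio had the same sign in both for 33 genes above 0 and 18 below, and opposite signs for 17. Without high-glucose replicate 1, 14 factor genes were higher and 6 lower at an adjusted p under 0.05 in edgeR, where 7.57% and 12.4% of all 16290 tested genes were called, and without high-glucose replicate 2 none was. The calls of that fit rest on the library that stood apart. Without it the median log2 fold change of the 69 genes was 0.06 in place of 0.16, 13 changed sign, and 31 kept their sign at a size over 1.5 times smaller. These include Eif2b4 (0.36), Eif6 (0.33), Eif4a3 (0.27), Eif1b (0.21), Eif3a (-0.47) and Eif2s3x (-0.20).

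Groups that do not overlap, with both libraries of one glucose level above both of the other, were seen for 27 factor genes higher at 25 mM (39.1%, against 22.4% of all tested genes) and 16 lower (23.2%, against 25.9%). The genes above 0 were spread over the complexes unevenly, and the account below follows the order of their work.

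**Figure D2:**
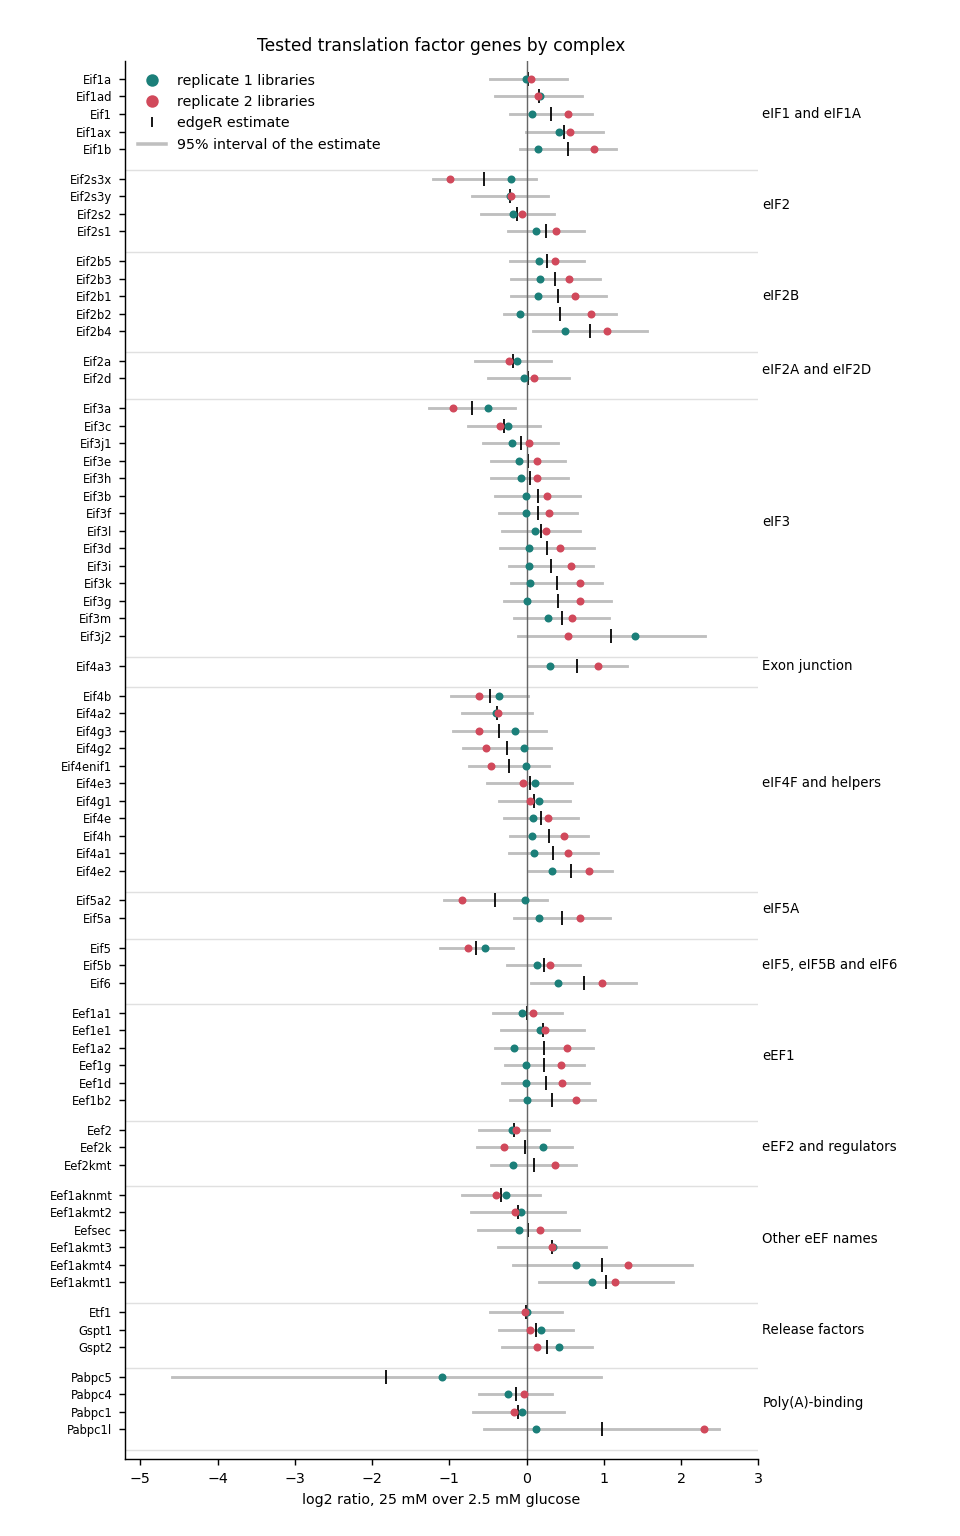
Log2 ratio of 25 mM over 2.5 mM glucose (x axis) for the 69 tested genes, grouped by complex: green points for the libraries numbered 1, red for those numbered 2, a black tick for the edgeR estimate and a grey line for its 95% interval. All 5 eIF2B estimates lie above 0, as they do under each other scaling (4 without high-glucose replicate 2), all 6 eEF1 estimates lie above 0 (5 with total counts, 4 with the length trend removed and the block, 3 without high-glucose replicate 2) and 3 of 4 eIF2 estimates below (2 once the length trend is removed). Pabpc5 has no red point because its count was 0 in the second high-glucose library.

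For the factors that set up the small subunit, all 5 tested genes of eIF1 and eIF1A had estimates above 0 under each scaling (median 0.32, 0.11 without high-glucose replicate 2 and 0.13 with the length trend removed) and none passed the adjusted test. Eif1 was at 549, 541, 576 and 783 CPM, scaled by the TMM factors as all CPM below, so the last library carried most of its difference. Eif1ax, the X-linked eIF1A gene, was at 29.3, 28.1, 39.3 and 41.3 CPM, and here both high-glucose libraries lay above both low-glucose ones, with a log2 fold change of 0.49 (SE 0.21, edgeR adjusted p = 0.486). Eif1a, the autosomal eIF1A gene, was at 78.6, 67.2, 77.9 and 70.2 CPM and the groups overlapped. Eif1b, a close relative of Eif1, was at 47.5, 44.2, 52.5 and 80.7 CPM with a log2 fold change of 0.54 (SE 0.26, adjusted p = 0.502).

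eIF2 carries the initiator tRNA, and 3 of its 4 genes had estimates below 0 with groups that did not overlap. Of all tested genes 25.9% were lower without overlap. Among the 3, Eif2s2 turned above 0 with the length trend removed. Eif2s3x, the X-linked gamma subunit gene, was at 116, 119, 101 and 59.7 CPM, with a log2 fold change of -0.55 (SE 0.28, edgeR adjusted p = 0.515). The value in the second high-glucose library was far below the other 3. Its Y-linked counterpart Eif2s3y was at 43.3, 43.2, 37.4 and 37.4 CPM, a smaller and more even difference. Eif2s2, the beta subunit, was at 146.9, 141.5, 130.0 and 135.7 CPM. Eif2s1, whose alpha subunit is the target of the stress kinases, stood on the other side of 0, at 61.4, 59.8, 66.6 and 78.0 CPM (log2 fold change 0.25, SE 0.21, adjusted p = 0.644).

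eIF2B, the exchange factor that recharges eIF2, had all 5 subunit genes above 0 under each scaling tried (median log2 fold change 0.41, or 0.27 with the length trend removed). Without high-glucose replicate 2 the median was 0.18 and Eif2b2 turned below 0. With all libraries, in 4 of the 5 both high-glucose libraries lay above both low-glucose libraries, where 22.4% of all tested genes did so. Eif2b4, the delta subunit of its regulatory part, was at 30.5, 37.0, 43.0 and 76.3 CPM. Both high-glucose values were above both low-glucose values, and the log2 fold change was 0.82 (SE 0.31, 95% interval 0.09 to 1.56, edgeR adjusted p = 0.451; 0.0733 with the replicate block). Eif2b5, the catalytic epsilon subunit, had the highest mean TPM of the 5, though its range overlapped that of Eif2b2. It was at 67.0, 63.7, 74.7 and 82.4 CPM (log2 fold change 0.27, SE 0.20). Eif2b2, the beta subunit, broke the pattern at 43.0, 41.3, 40.4 and 73.4 CPM, since only its last library was high. The summed level of the 5 genes was 189.5, 192.9, 212.6 and 309.1 CPM. In the libraries numbered 1 the median ratio of the 5 was 0.16, and in those numbered 2 it was 0.62.

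eIF2A and eIF2D can bring tRNA to the ribosome outside the usual route. Eif2a, the more abundant of them per length, was at 68.9, 66.1, 63.1 and 56.4 CPM, with a log2 fold change of -0.18 (SE 0.21), and Eif2d had 0.02.

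eIF3 is the largest initiation factor and holds the small subunit open for mRNA. Of its 14 genes 11 had estimates above 0 (median 0.17; 10 with total counts, where Eif3e turned). Without high-glucose replicate 2 only 6 were above 0 and 8 below, with a median of -0.04. Its largest subunit had an estimate below 0 in both fits. Eif3a was at 586, 571, 414 and 294 CPM, both high-glucose libraries far below the low-glucose ones, with a log2 fold change of -0.71 (SE 0.24, 95% interval -1.26 to -0.15). The edgeR adjusted p was 0.449 without the replicate block and 0.0536 with it. In the table Eif3a (ENSMUSG00000024991) lies on the minus strand of chromosome 19 from 60749555 to 60779096, positions of a build that the sources do not settle. Eif3c, the second core subunit that binds the other factors, was at 503, 507, 426 and 398 CPM (log2 fold change -0.29, SE 0.20). With all libraries, every other eIF3 gene apart from Eif3j1 had an estimate above 0, although Eif3h turned below and Eif3j1 above 0 with the length trend removed, for example Eif3m at 69.3, 83.5, 84.0 and 125.4 CPM and Eif3g at 80.1, 87.2, 80.5 and 141.0.

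Within a library the subunits can be set against each other per length. Eif3a made up 10.8% and 10.2% of the summed eIF3 TPM at low glucose and 8.14% and 4.80% at high glucose, a ratio of group means of 0.615. Eif3c went from 23.1% and 22.5% to 20.8% and 16.2%. Eif3h stayed between 14.7% and 14.9% in all 4 libraries. Eif3m went from 4.32% and 5.03% to 5.56% and 6.90%. No test was made of these shares. They were not corrected for the length trend described below, and its part in them was not tested. Eif3a spans 8731 bases, Eif3c 3511, Eif3m 2590 and Eif3h 1612. Eif3j1 and Eif3j2 are near-identical genes whose reads may be split arbitrarily: Eif3j2 was at 3.41, 2.53, 8.99 and 3.67 CPM, its log2 fold change of 1.09 (SE 0.51, edgeR adjusted p = 0.494) being the largest above 0 of all 69, and without high-glucose replicate 1 it was 0.31. Eif3j1, with far more reads, was at 70.9, 65.5, 62.2 and 66.9 CPM.

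The cap-binding group eIF4F and its helpers was divided, with 6 estimates above 0 and 5 below (median 0.04), or 7 and 4 with the length trend removed. The eIF4A helicases, which unwind the mRNA leader, had estimates on opposite sides of 0, and neither passed the test. Eif4a2 was at 708.9, 716.1, 540.3 and 552.2 CPM, the same difference in both replicate numbers, with a log2 fold change of -0.38 (SE 0.19, edgeR adjusted p = 0.506). Eif4a1 was at 339, 364, 362 and 530.1 CPM (log2 fold change 0.34, SE 0.24, adjusted p = 0.596), its groups overlapped, and without high-glucose replicate 2 it had 0.06. Counted per length within a library, Eif4a1 was 37.1% and 38.5% of the eIF4A mRNA at low glucose and 45.2% and 54.2% at high glucose, a difference of 11.9 percentage points. Both high-glucose libraries lay above both low-glucose ones, the most that 2 against 2 can show (exact permutation p = 0.333, two-sided). A processed pseudogene row, Eif4a-ps4, held 1158, 1317, 1312 and 1673 reads, so reads of this family may be shared between rows.

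Eif4b, which stimulates the helicase, was at 466.7, 447.5, 364.2 and 292.8 CPM. Both high-glucose libraries were lower, and the log2 fold change was -0.48 (SE 0.21, edgeR adjusted p = 0.488). The cap-binding protein gene Eif4e was at 122, 119, 129.7 and 145 CPM, with a log2 fold change of 0.19 (SE 0.20). Eif4e2, whose product binds caps and represses translation, was at 38.9, 35.0, 48.8 and 61.0 CPM, with both high-glucose values above both low ones (log2 fold change 0.57, SE 0.23, adjusted p = 0.458). Among the 3 cap-binding genes its share by TPM was 13.8% and 13.2% at low and 15.8% and 19.0% at high glucose. Eif4e3 was at 30.4, 27.6, 32.7 and 26.75 CPM, without separation.

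The eIF4G scaffolds hold the cap, the helicase and eIF3 together. Eif4g1 was at 547, 576, 610.0 and 591 CPM. Eif4g2, whose product lacks the part that binds eIF4E, was at 1028, 990, 1007 and 689 CPM, and Eif4g3 at 256.9, 234.5, 232.5 and 152.4. For both of these only the second high-glucose library was clearly low. Eif4g1 was 37.6% and 39.95% of the 3 genes by TPM at low glucose and 41.0% and 49.8% at high glucose (exact permutation p = 0.333, two-sided). Eif4a3, an eIF4A relative that marks exon junctions rather than initiating translation, was at 70.8, 74.5, 87.2 and 141.6 CPM, with a log2 fold change of 0.66 (SE 0.27, edgeR adjusted p = 0.471).

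**Figure D3:**
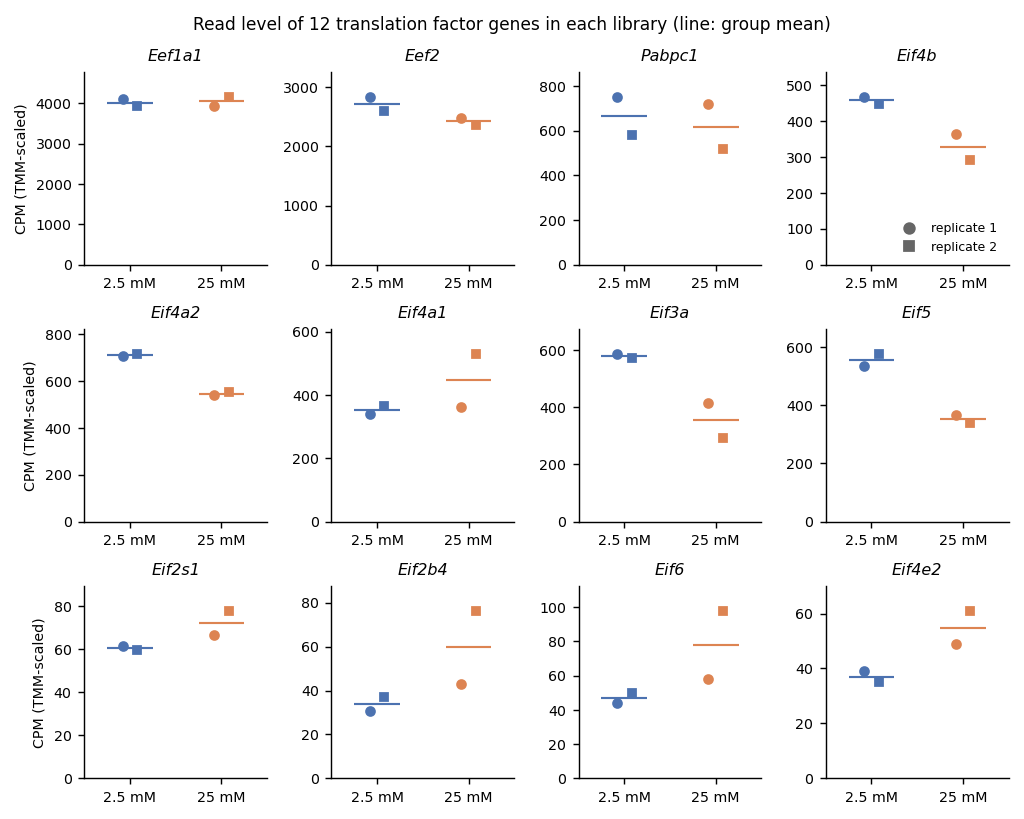
TMM-scaled CPM of 12 factor genes, each panel with its own axis from 0: blue for 2.5 mM, orange for 25 mM, circle for replicate 1, square for replicate 2, and a line at the group mean. In Eif3a, Eif5, Eif4b and Eif4a2 both high-glucose points lie below both low-glucose points, in Eif2b4, Eif6 and Eif4e2 both lie above, and in Eef1a1 and Pabpc1 they overlap.

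At the joining of the subunits, Eif5, the GTPase activator of eIF2, was at 534, 577, 367 and 341 CPM. The low and high libraries were well apart, with a log2 fold change of -0.65 (SE 0.20, 95% interval -1.12 to -0.18), and it had the lowest adjusted p of the 69 genes, 0.439 in edgeR (0.101 with the replicate block). Eif5b, which joins the large subunit, was at 141.3, 139.9, 155.7 and 172.2 CPM. Eif6, which keeps free large subunits apart from small ones, was at 44.0, 49.7, 58.3 and 97.9 CPM (log2 fold change 0.74, SE 0.29, adjusted p = 0.454), or 0.33 without high-glucose replicate 2. Eif5 and Eif6 thus stood on opposite sides of 0, each with groups that did not overlap.

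Eif5a, the hypusine-bearing factor, was at 349, 378, 389 and 611 CPM (log2 fold change 0.46, SE 0.26), the last library again the high one. Its relative Eif5a2 was at 20.2, 23.4, 19.9 and 13.1 CPM, and its share of the pair by TPM was 2.66% and 2.85% at low glucose and 2.36% and 1.00% at high glucose (exact permutation p = 0.333, two-sided).

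The elongation factors showed little difference at their abundant genes. The 6 genes grouped as eEF1 by name alone were Eef1a1, Eef1a2, Eef1b2, Eef1d, Eef1e1 and Eef1g. Their median log2 fold change was 0.22, which was 0.02 without high-glucose replicate 2, with 3 then above 0 and 3 below. Eef1a1 was at 4114, 3933, 3942 and 4159 CPM, with overlapping groups and a log2 fold change of 0.01 (95% interval -0.44 to 0.46, edgeR adjusted p = 0.990). Eef1a2, its counterpart in muscle and neurons, was at 71.98, 72.2, 64.5 and 103.8 CPM, or 1.92% to 2.90% of the pair by TPM. The exchange factor genes Eef1b2, Eef1d and Eef1g had log2 fold changes of 0.33, 0.25 and 0.23, and their ratio between the libraries numbered 1 was between -0.01 and 0.00. Eef2 was at 2836, 2593, 2479 and 2366 CPM, both high-glucose libraries lower (log2 fold change -0.16, SE 0.19, adjusted p = 0.755). Eef2k, the kinase that inhibits eEF2, was at 18.6, 18.8, 21.5 and 15.3 CPM, with a log2 fold change of -0.02.

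Other genes with an Eef name encode enzymes or a special carrier rather than general factors. Eef1akmt1, a lysine methyltransferase of eEF1A, was a low-count gene with 87, 123, 173 and 260 reads, or 4.86, 6.61, 8.74 and 14.7 CPM. Both high-glucose libraries were above both low ones, and the log2 fold change was 1.03 (SE 0.37). It was past the adjusted threshold with the replicate block (log2 fold change 1.00, edgeR adjusted p = 0.0298) but not without it (0.451). Once the length trend was also removed its adjusted p was 0.0743. Eef1akmt4 was lower still, with 25, 22, 43 and 52 reads (log2 fold change 0.98, SE 0.49, adjusted p = 0.505).

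At the end of translation, Etf1, which encodes the release factor eRF1, was at 185.2, 189.7, 185.5 and 187.7 CPM, with groups that overlapped and differed by little. Its partner Gspt1 (eRF3a) was at 172.2, 166.7, 196.2 and 172.1 CPM and Gspt2 (eRF3b) at 17.98, 23.5, 24.1 and 25.8. Gspt2 made up 13.0% and 16.9% of the pair by TPM at low glucose and 15.0% and 17.7% at high glucose, which overlap.

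The poly(A)-binding genes were led by Pabpc1, at 750.1, 581.3, 719.4 and 517.3 CPM. Replicate 1 was above replicate 2 at both glucose levels, and the log2 fold change was -0.11 (SE 0.25, edgeR adjusted p = 0.890). Pabpc4 was at 188, 177, 159 and 173 CPM (log2 fold change -0.14, SE 0.20), and its share of the pair by TPM, 28.9% and 33.1% against 26.4% and 35.2%, overlapped. Pabpc5, an X-linked gene of low level, had 56, 40, 29 and 0 reads. Without the replicate block edgeR gave a log2 fold change of -1.82 (SE 1.18, adjusted p = 0.570), and with it -2.27 (adjusted p = 0.00313). The blocked fit took its spread from the trend over all genes, so the 0 of 1 library does not widen it. Pabpc1l had 39, 12, 47 and 56 reads (log2 fold change 0.97, SE 0.65), with the second low-glucose library far below the other 3.

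The difference between the libraries depended on the exonic length of the gene, and among the factor genes the ratio also fell with length. Across the factor genes, which are not independent replicates, Spearman's rho of length with the log2 ratio was -0.25 between the libraries numbered 1 (69 genes) and -0.57 between those numbered 2 (68 genes), beside -0.18 and -0.48 over all tested genes. The 23 shortest factor genes, 947 to 2698 bases, had a median log2 fold change of 0.39, with 21 above 0. The 23 longest, 5266 to 11063 bases, had -0.02, with 11 above 0. The longest factor genes did not lie as low as other long genes. Between the libraries numbered 2 their median log2 ratio was 0.03, beside -0.44 for all tested genes of at least 5266 bases. Between those numbered 1 it was -0.03, beside -0.10. For the shortest factor genes it was 0.61 (numbered 2) and 0.07 (numbered 1), beside 0.47 and 0.05 for all tested genes of up to 2698 bases. With the length trend removed the medians of the shortest, middle and longest were 0.20, 0.05 and 0.20.

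Removing the trend changed which genes stood out. Together with the replicate block, it gave 3 factor genes higher and 2 lower at an adjusted p under 0.05, where 3.75% and 4.96% of all tested genes were called. The higher ones were Eif4e2 (log2 fold change 0.81, edgeR adjusted p = 0.0034), Eif2b4 (0.65, 0.0294) and Eif5b (0.58, 0.0411), and the lower ones were Eif2s3x (-0.61, 0.0338) and Pabpc5 (-2.34, 0.00064). Eif4e2 spans 7497 bases and Eif5b 9753, lengths at which the genes of the table tended to be lower at high glucose. Eif3a, of 8731 bases, had -0.42 (adjusted p = 0.133) in that fit, and Eif5, of 6820 bases, -0.44 (0.109). The length trend alone, without the block, gave 0 calls among the factor genes.

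**Figure D4:**
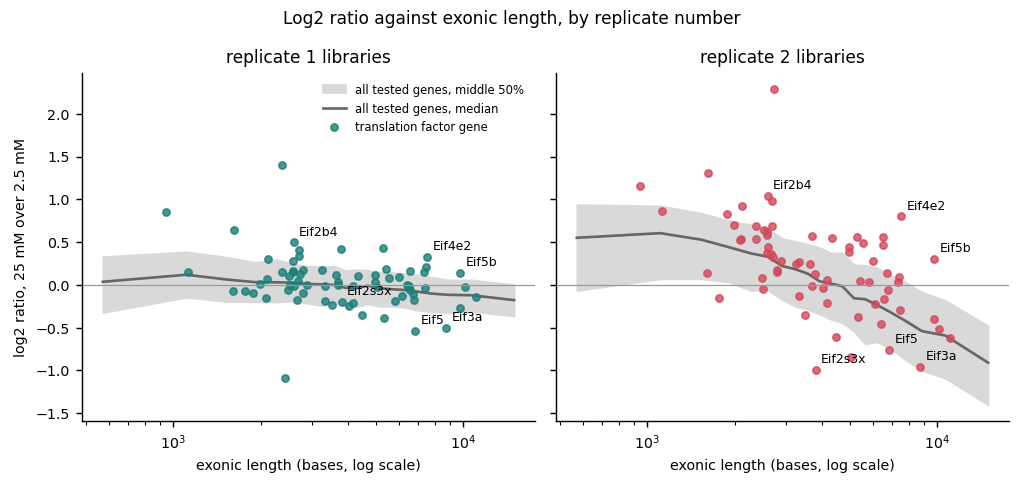
Log2 ratio of 25 mM over 2.5 mM (y axis) against exonic length in bases on a log axis, for the libraries numbered 1 (left) and 2 (right). Points are factor genes, the grey line is the median of all tested genes in 20 length classes and the band their middle 50%; the line slopes down more on the right, and Eif4e2 and Eif5b lie above it while Eif2s3x and Eif3a lie below.

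Shares of paralogs within a library do not depend on the scaling between libraries, but they were not corrected for the length trend. They differed without overlap in 7 of the 11 groups compared, each at the smallest exact permutation p of 0.333. Besides eIF4A, eIF4G, eIF5A and eIF1A these were Eif1 with Eif1b, Eif3j1 with Eif3j2, and Eif4e2 within its group. By CPM of single genes, a different measure, 22.4% of all tested genes were higher without overlap and 25.9% lower, so separation is common here. Eif1ax went from 22.8% and 24.9% of the eIF1A mRNA to 28.5% and 31.8%, and Eif1b from 13.9% and 13.2% to 14.5% and 16.1% of its pair. With 11 groups and 4 libraries no adjusted value can pass. The gene with the higher share at high glucose was the shortest of its group for Eif4a1, Eif4g1, Eif5a, Eif1b and Eif3j2. It was the longest for Eif1ax and Eif4e2. The part of the length trend in these shares was not tested.

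**Figure D5:**
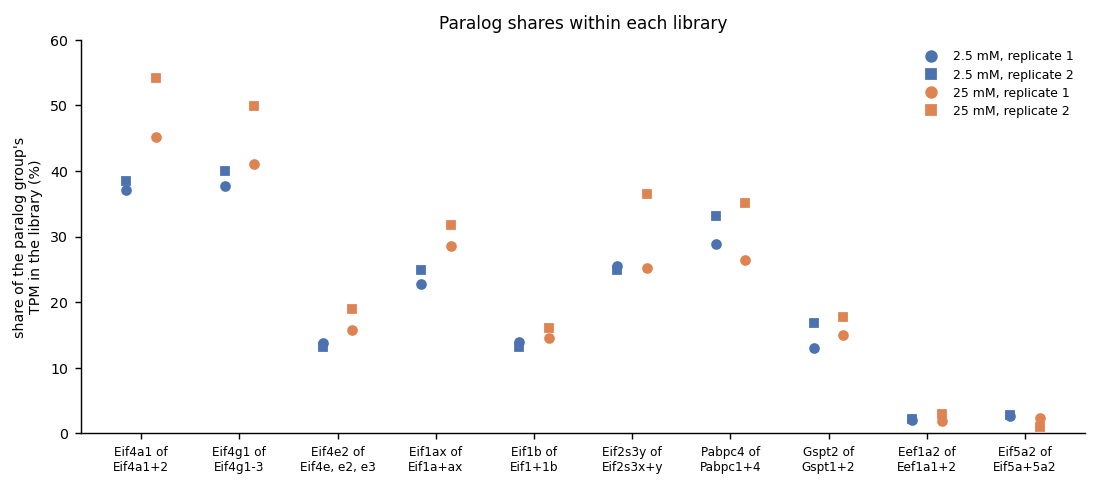
Share of 1 gene in the summed TPM of its paralog group (y axis, %), 1 point per library, blue for 2.5 mM and orange for 25 mM, circle for replicate 1 and square for replicate 2. Eif4a1, Eif4g1, Eif4e2, Eif1ax and Eif1b lie higher at 25 mM and Eif5a2 lower, while Eif2s3y, Pabpc4, Gspt2 and Eef1a2 overlap.

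The 10 genes of the TOP list had a median log2 fold change of 0.03, from -0.48 (Eif4b) to 0.33 (Eef1b2), 7 above 0, and none was past an unadjusted p of 0.05. The other 59 tested factor genes had a median of 0.19, with 7 past it (5 higher, 2 lower). Of all tested genes 3.82% were past it and higher and 6.67% past it and lower. The lists were not tested against each other. The TOP genes summed to 9275, 8605, 8593 and 8709 CPM, so the groups overlapped. These are levels of mRNA, and how well it was translated was not measured in these libraries.

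Short motifs were searched in the promoter window of RefSeq, 250 bases before to 50 after each start in GRCm38.p6, on both strands. CCGGAAG, the core that ETS factors bind, was in 16 of the 52 tested factor genes in the table (30.8%), against 9.93% of all genes and 18.7% of tested genes. Those 16 had a median log2 fold change of 0.37 (13 above 0) and the others one of 0.06. Without high-glucose replicate 2 the median of the 16 was 0.08 (10 above 0), and with the length trend removed it was 0.22. Over all 69 tested factor genes the same 2 fits gave 0.06 and 0.15. The sites of the 3 genes with the largest and the 2 with the smallest log2 fold change among the 16 are shown, 30 bases each along the gene, with the match in capitals.
Eif2b4: cccagtgcacgCCGGAAGttgtagtccgct
Eif4e2: tcgccagccaaCCGGAAGtagccgggccct
Eif1b: cgccgttgcacCCGGAAGcgcctccgcccg
Eif3c: attctttggtgCTTCCGGgaagtgacgccc
Eif5a2: agctctgcacgCCGGAAGtgcactaatccg
They lie at chr5:31193120-31193149 on the minus strand (Eif2b4), chr1:87213905-87213934 on the plus strand (Eif4e2), chr9:120492445-120492474 on the plus strand (Eif1b), chr7:126566416-126566445 on the minus strand (Eif3c, where the match is on the opposite strand) and chr3:28781102-28781131 on the plus strand (Eif5a2). CACGTG, the E-box of MYC and its relatives, was in 14 (26.9%, against 8.09% of all genes and 11.4% of tested genes). The median log2 fold change of these 14 was 0.17, beside 0.15 for the factor genes without it. It was 0.26 (11 above 0) with the length trend removed, higher than that of the ETS class, and 0.10 without high-glucose replicate 2. For a run of at least 8 pyrimidines around the start the medians were also 0.17 with and 0.15 without. The median with such a run was 0.095 once the length trend was removed and -0.0064 without high-glucose replicate 2. TGACGTCA, the full cyclic-AMP response element, was in Eef2 alone of the factor genes (1.92%, against 2.03% and 3.55%), and TGATGCAA, a form of the C/EBP-ATF element, in none (1.03% and 0.732%). A match is a run of letters and no measured binding.
Eef2: aggccgggcgtTGACGTCAgcggtctcttc
This stretch of Eef2 lies at chr10:81176622-81176651 on the plus strand, with the element just after the annotated start.

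Genes that act on the factors were read from the same fit. Of 21 tested regulators of initiation and elongation (kinases, phosphatase subunits, 4E-binding proteins, Larp and Paip genes), 6 had estimates above 0 and 15 below, with a median log2 fold change of -0.28 and 0 past the adjusted test without the block. Of all tested genes 49.2% were above 0. The median of the 21 was -0.09 without high-glucose replicate 2, with 8 above 0, and -0.17 with the length trend removed and the block. Mknk1, a kinase that phosphorylates eIF4E, was at 75.7, 72.8, 40.5 and 37.0 CPM. Both high-glucose libraries were near a common lower level, with a log2 fold change of -0.94 (SE 0.21, edgeR adjusted p = 0.4003), and it was the only one of the 21 to pass with the replicate block (adjusted p = 0.0196). That is 4.76% of the list, near the 5.01% of all genes called lower in that fit. In DESeq2 its adjusted p was 0.0436 without the block.

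Of 11 tested genes of ribosome recycling, rescue and quality control, 5 were above 0 and 6 below, or 7 and 4 with the length trend removed. Gtpbp2, a GTPase that acts on stalled ribosomes in mice, was at 250.1, 171.4, 125.7 and 87.7 CPM. It fell with the block (log2 fold change -0.98 without the block, edgeR adjusted p = 0.0112 with it) and was not past the threshold in DESeq2 (adjusted p = 0.0601). It was the 1 gene of this list called lower with the block (9.09%, beside 5.01% of all genes). With the length trend removed and the block, Gtpbp2 was again called lower (log2 fold change -0.88, edgeR adjusted p = 0.00037). Nemf was called higher in that fit (0.61, adjusted p = 0.0400), where 3.75% of all tested genes were called higher and 4.96% lower. Without the block and with the trend kept, Nemf had 0.22 (adjusted p = 0.689). Of 10 tested enzymes that modify factors, which include those for hypusine and diphthamide, 6 were above 0 and 4 below with a median of 0.04. This median was -0.11 without high-glucose replicate 2, with 3 above 0. Of 6 re-initiation genes and helicases 2 were above 0 and 4 below, with a median of -0.04, or 3 and 3 with the length trend removed. None of the genes in these last 2 lists passed in either edgeR fit.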

How the data were processed

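RNA-seq of mouse islets was analysed in 4 libraries, 2 per glucose level, grouped by the labels. The authors deposited raw read counts per gene, not normalised, with the exonic length of each gene. By the labels and the study's methods, reads were cleaned with fastp, aligned with HISAT2 and counted with featureCounts, and the authors tested with DESeq2. The labels give HISAT2 2.2.1 and DESeq2 1.42.0, whereas the study's methods name an older DESeq2 version. Strand setting and the treatment of multi-mapping reads are not given in the sources used here. Genes with close copies (Eif3j1 and Eif3j2, Eif2s3x and Eif2s3y, Eif1 and Eif1b, Eif1a and Eif1ax, Eef1a1, Eef2, Eif4a1) are therefore uncertain. The labels name mm10, but of 52073 genes also found in GENCODE vM21 only 1485 started at the same base, so positions of the table carry no build. Sequences come from RefSeq GRCm38.p6, where 54 of the 91 genes were matched by symbol.

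After filterByExpr 15665 genes remained, and edgeR 4.0.16 (run under R 4.3.3) compared the groups by its two-sided quasi-likelihood test with TMM scaling. P-values were adjusted by Benjamini-Hochberg across all of them, at a threshold of 0.05. CPM were scaled by the TMM factors, and TPM were computed from counts and exonic length. The ratio of same-numbered libraries was taken on log2 CPM. The script was tested on simulated counts. DESeq2 1.42.0 and limma-voom (limma 3.58.1), other scalings, no filter, removal of the length trend by loess (span 0.5), each left-out library and fits with a replicate block were alternatives. The islets of a mouse were divided between both glucose levels by the study's text, but no source says that the numbers of these libraries are pairs. Same-numbered libraries deviated together (Pearson r = 0.41 across genes, which with 2 pairs only fixes a sign). Both fits are given. The block leaves 1 residual degree of freedom. Variation between replicates (common BCV) was 27.7%, or 20.4% under the block. Replicates of a group differed by more than sampling noise (chi-square per degree of freedom 25.3 at low and 109 at high glucose). Labels do not say that replicates were separate cultures, so p-values without the block measure the spread between these libraries. Those of the edgeR fit with the block rest on the trend of the spread over all genes (infinite prior degrees of freedom), not on each gene's own spread.

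Depth was 17279505 to 19136068 counts. Wilson intervals (95%) cover counting error only, since reads carry no molecular identifiers. Named genes were those past the adjusted threshold in either edgeR fit, the 5 largest and 5 smallest log2 fold changes, the most abundant gene per length of each complex, the paralog groups, 6 genes the study followed or discussed, and Eef2k. Eif6, Eif5b, Eif2b2, Eif2s2, Eif2d, Eif3g, Eif3h, Eif3m, Eef1b2, Eef1d, Eef1e1 and Eef1g were named after their values were seen. The genes, lists and tests were chosen with earlier results of these data known.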

Additional observations from a re-analysis of the deposited data

How the results depend on the processing

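With 2 libraries a group, 27.7% variation between replicates limits every call, and the adjusted test without a block passed no gene of any size. The count of factor genes past an adjusted p of 0.05 was 0 without a block and stayed 0 in DESeq2 with and without the block, limma-voom, both other scalings, no filter and length removal alone. It was 2 with the replicate block in edgeR, 2 in limma-voom with the block and 5 with length removal and the block. Leaving out 1 library gave 0 to 20, the 20 without high-glucose replicate 1. The count by the study's thresholds was 6 (4 higher, 2 lower), 8 in DESeq2 (6 higher, 2 lower), 4 with length removal alone, where 0 were lower and Eif3a and Eif5 no longer counted, 11 with the replicate block, 10 in limma-voom with the block and 2 to 20 with 1 library left out (2 without high-glucose replicate 2 or low-glucose replicate 1, 20 without high-glucose replicate 1). For the study's thresholds the share over all tested genes is known only for the edgeR fit without a block, 3.63% higher and 6.33% lower. Whether the counts of the other fits exceed the share of all genes in the same fit cannot be told. The cause of these differences was not tested. The fits that leave out a library take the lone sample of a group to vary like the other group.

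The median log2 fold change of the factor genes was 0.16 and between 0.06 and 0.29 in all 14 alternatives. Of 40 named genes 30 kept their sign throughout, and 32 of 560 alternative values were reversed, all in genes with a size of at most 0.35. With length removal, alone and then with the block, the log2 fold change was -0.13 and -0.13 for Eef1a1, 0.20 and 0.20 for Eef2k, 0.073 and 0.063 for Eif3j1, -0.093 and -0.10 for Eif4e3, 0.10 and 0.10 for Eif4g2, 0.02 and 0.03 for Eif4g3, and 0.073 and 0.077 for Pabpc1. With the block and length removal Eef1a2 had -0.0017. Eef1a1 had -0.0091 without composition factors and -0.0035 without the filter. Etf1 had 0.01 in DESeq2 with and without the block (0.0107 and 0.0101) and 0.017 with its size factors. With 1 library left out the log2 fold change ran from -0.018 to 0.051 for Eef1a1, -0.15 to 0.53 for Eef1a2, -0.29 to 0.21 for Eef2k, -0.052 to 0.14 for Eif1a, -0.11 to 0.19 for Eif4e3, -0.55 to 0.0092 for Eif4g2, -0.026 to 0.065 for Etf1 and -0.36 to 0.13 for Pabpc1.

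Shares were also recomputed with 1 library left out, an alternative chosen after seeing the data. The difference of the summed share ran from -0.144 to 0.025 percentage points. The difference in the share of Eef1a1 ran from -0.80 to 0.18 points, of Pabpc1 from -4.16 to 4.63, of Gspt1 from -3.31 to 0.51 and of Eif4e from -2.51 to 1.2. The other 7 paralog groups kept their direction. For Eif4a1 the difference was 7.47 to 16.4 points. Medians and counts above 0 of the complexes, promoter classes and lists of acting genes were likewise recomputed after seeing the data. Only part of these values is printed with the results. The medians of the TOP list and of the other factor genes were not recomputed. Undivided counts in place of reads per length changed no direction.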

Other observations

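Processed pseudogenes of the factors, which the rule left out as not protein-coding, also held reads. Eef2-ps2 had 298, 274, 262 and 278 reads and Eef1a1-ps1 15, 11, 6 and 18 (low glucose replicates 1 and 2, then high glucose replicates 1 and 2). Pabpc1l2a had 39, 41, 38 and 19 reads, and Pabpc1l2b 20, 19, 20 and 13. Among the regulators, Eif4ebp2, a 4E-binding protein gene, was at 138.8, 145.2, 178.5 and 181.7 CPM (log2 fold change 0.34, edgeR adjusted p = 0.540). Eif4ebp1 was at 151.6, 135.0, 109.9 and 111.9 (-0.37, adjusted p = 0.531). The groups of each did not overlap, where 22.4% of all tested genes were higher and 25.9% lower without overlap.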
